A study of Mus musculus with 4 samples.

Results

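The genes described here encode cell adhesion molecules of 4 kinds: cadherins, contactins, contactin-associated proteins (Cntnap) and IgLON proteins. Members were chosen by symbol among the protein-coding genes of the GENCODE vM21 basic annotation on mm10, the mouse assembly also called GRCm38. The symbols were Cdh followed by a number, except Cdh5, then Cntn1 to Cntn6, those starting with Cntnap1 to Cntnap5, and Lsamp, Negr1, Opcml, Ntm and Iglon5. This gave 40 of 21755 protein-coding genes on the autosomes and chromosome X: 5 type I cadherins, 12 type II cadherins, 5 other cadherins, 6 contactins, 7 Cntnap genes and 5 IgLON genes. The rule reads symbols alone, but it was set with earlier results of these data known.

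H3K27ac, a histone acetylation that marks active promoters and enhancers, was mapped by chromatin immunoprecipitation and sequencing (ChIP-seq) in left cerebral cortex from B6CASTF1/J mice, which were adult females aged 2 months. These animals are F1 hybrids, and the tissue of 4 biosamples was combined in each of 2 pools, named I and J. Each pool gave 2 technical libraries, so 4 samples make up 1 group, with no second genotype, treatment or time. The sources name no transgene, and reads of the CAST copy of the genome can differ from the reference at strain variants. Peaks were deposited per pool and for both pools together, so each value exists per list and the pools are the only replicates. No test between groups was possible, and the values below are descriptions. The cortex was whole tissue, so fewer cells of a type and less acetylation per cell cannot be told apart.

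Cadherins hold cells together through calcium-dependent binding of their outer domains, mostly between like molecules, and the classical ones are tied to actin through catenins. Contactins and IgLON proteins are immunoglobulin-domain molecules held to the membrane by a lipid anchor, and they act in axon growth, synapse formation and the contact of axons with glia. Cntnap proteins span the membrane and pair with contactins, best known at the borders of the node of Ranvier, where they keep potassium channels apart from sodium channels.

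The summit is the base of a peak at which the authors' caller placed the highest enrichment, and 201 bp around it are shown here for 7 peaks of members. All letters are from the reference genome GRCm38.p6 and are written 5′ to 3′ on the strand of the gene, so the CAST copy may differ. All 7 windows lie outside annotated exons. Capitals mark a match to 1 of the 6 motifs searched on both strands. One was the E-box CAGATG, which is written here as CATCTG where it lies on the other strand. Other matches were to the E-box CAGCTG and to the AP-1 motif TGANTCA. The first 3 windows lie at promoters and differ in strength and place: the strongest contactin start (chr15:92051450-92051650, plus strand), the start of the longest member gene (chr6:45059664-45059864, plus) and the second start of Ntm (chr9:29412220-29412420, minus). The strongest intragenic peaks of Opcml (chr9:28662473-28662673, plus), Cntn3 (chr6:102563284-102563484, minus) and Cdh20 (chr1:104839095-104839295, plus) follow, with the Cdh20 promoter (chr1:104769214-104769414, plus) beside them as the widest promoter peak of a member.
Cntn1 promoter: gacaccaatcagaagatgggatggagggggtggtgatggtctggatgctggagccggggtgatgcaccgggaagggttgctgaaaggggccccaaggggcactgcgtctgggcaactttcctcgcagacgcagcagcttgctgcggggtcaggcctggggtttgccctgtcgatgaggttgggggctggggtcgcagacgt
Cntnap2 promoter: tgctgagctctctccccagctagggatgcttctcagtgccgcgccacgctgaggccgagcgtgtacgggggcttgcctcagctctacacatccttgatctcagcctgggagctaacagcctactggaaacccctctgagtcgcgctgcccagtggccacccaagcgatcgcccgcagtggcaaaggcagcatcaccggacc
Ntm promoter, second start: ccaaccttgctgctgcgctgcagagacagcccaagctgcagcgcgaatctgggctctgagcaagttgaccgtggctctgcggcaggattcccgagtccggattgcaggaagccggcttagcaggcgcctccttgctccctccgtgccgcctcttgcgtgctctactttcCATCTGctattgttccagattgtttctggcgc
Cdh20 promoter: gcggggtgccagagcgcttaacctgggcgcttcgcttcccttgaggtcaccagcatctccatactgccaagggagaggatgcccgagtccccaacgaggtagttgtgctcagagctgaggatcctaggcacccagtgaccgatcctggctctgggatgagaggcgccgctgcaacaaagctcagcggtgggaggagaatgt
Cdh20 intragenic: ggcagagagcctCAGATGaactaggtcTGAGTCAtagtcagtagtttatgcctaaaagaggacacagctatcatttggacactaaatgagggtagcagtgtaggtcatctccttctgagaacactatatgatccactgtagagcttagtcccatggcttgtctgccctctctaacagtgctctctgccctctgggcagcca
Opcml intragenic: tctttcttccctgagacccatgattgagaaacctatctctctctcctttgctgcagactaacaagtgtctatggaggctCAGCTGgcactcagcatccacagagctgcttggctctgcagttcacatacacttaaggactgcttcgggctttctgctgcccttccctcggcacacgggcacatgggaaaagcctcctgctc
Cntn3 intragenic: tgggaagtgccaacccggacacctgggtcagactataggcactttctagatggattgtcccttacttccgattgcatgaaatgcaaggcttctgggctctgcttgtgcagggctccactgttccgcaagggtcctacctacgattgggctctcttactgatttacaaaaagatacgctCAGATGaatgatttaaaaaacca
The promoter windows held more CG pairs than the intragenic ones, with 9 in Cntn1, 12 in Cntnap2, 13 in Ntm and 10 in Cdh20. The intragenic windows held 3 in Opcml, 5 in Cntn3 and 0 in Cdh20. The Cdh20 window carried both an AP-1 match (TGAGTCA) and CAGATG, the E-box bound by neuronal basic helix-loop-helix factors, both near its start.

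The replicated list, made by the authors from both pools, held 72027 peaks on these chromosomes. There were 69834 in pool I alone and 49839 in pool J alone. Peak signal is the value the authors' caller gave to each peak. How it was normalized is not stated in the sources used here, and the depth of the libraries is unknown, so a gene without a peak is a gene at which none was detectable, not a gene without the mark. The lists were read against marker genes of the labelled tissue. All 7 markers of cortical projection neurons had a promoter peak, and none of 6 markers of other brain regions had one. Markers of other cell types of the tissue were also marked: 3 of 4 for interneurons, 2 of 3 each for astrocytes and oligodendrocytes, and 3 of 3 each for microglia and endothelium.

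Most adhesion genes carried H3K27ac at a start site. A peak within 1000 bp of a transcription start site (TSS), called a promoter peak, was found for 29 of 40 members (72.5%) in the replicated list, against 58.5% of all protein-coding genes. In pool I 29 members were marked (58.2% of all coding genes) and in pool J 28 (55.2% of all coding genes), the difference being Cntnap5b. The member genes were long, with a median body of 259 kb against 17.4 kb over all coding genes, and long genes were marked more often in general. Among members of at least 100 kb 25 of 29 (86.2%) had a promoter peak, against 79.4% of the 2489 coding genes of that length. Among shorter members 4 of 11 (36.4%) had one, against 55.8% of shorter coding genes. Where a promoter was marked, its highest signal had a median percentile of 58.7 among all marked coding genes, with 16 of 29 members above the 50th, 6 above the 75th and 6 below the 25th. This side of the middle did not hold throughout: the median percentile was 62.6 in pool I but 47.5 in pool J, and 46 when the 5′ end of the gene record alone was used.

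**Figure D1:**
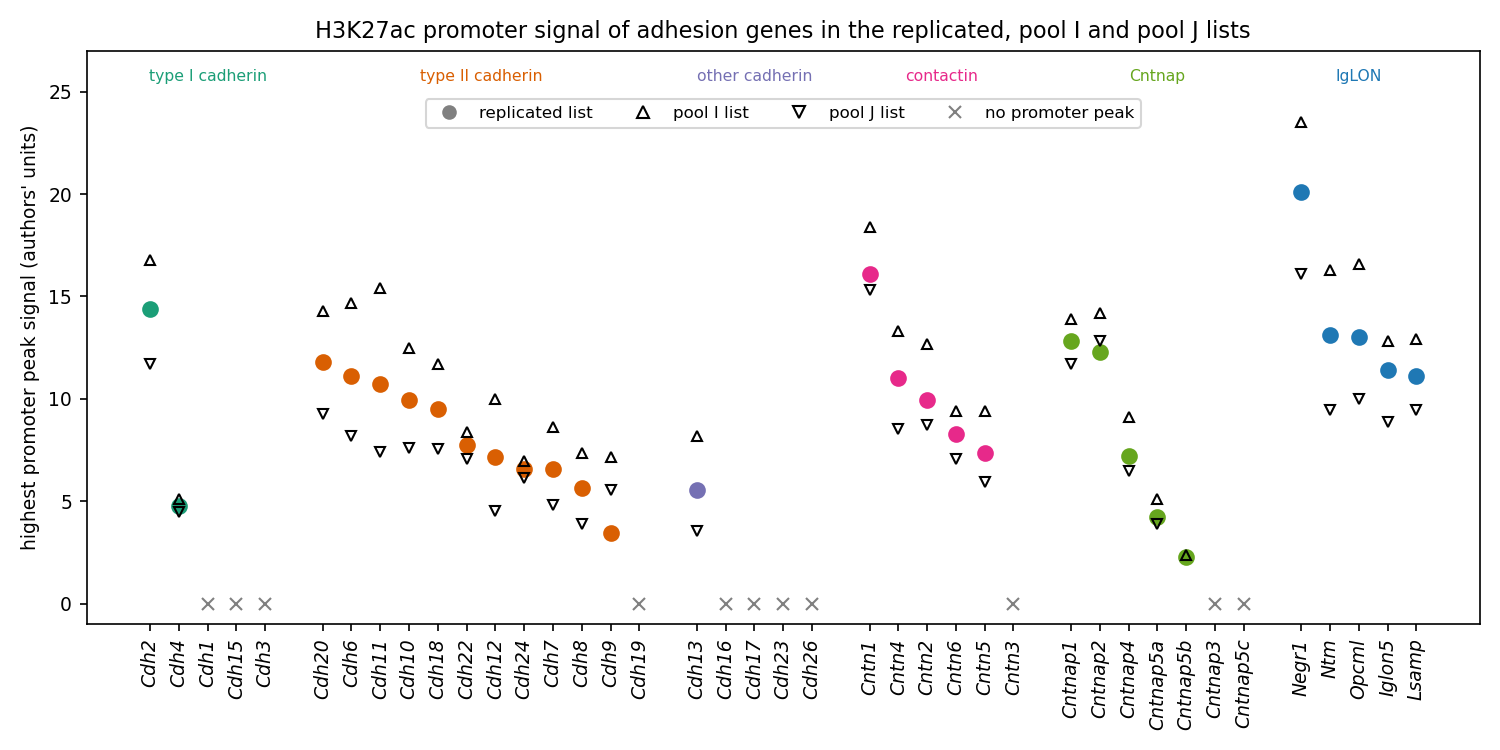
Highest promoter peak signal (y axis, authors' units) of each of the 40 genes (x axis), grouped by family. Filled circles are the replicated list, triangles pointing up pool I and down pool J, and crosses at 0 the 11 genes with no promoter peak in any of these lists; the 5 IgLON genes all sit at 11.1 or above in the replicated list, and pool I lies above pool J in every gene with both.

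The type I cadherins split into marked neural members and unmarked epithelial or muscle ones. Cdh2, which encodes N-cadherin, the main classical cadherin of neurons and their synapses, had a promoter signal of 14.4 in the replicated list (16.8 in pool I and 11.7 in pool J), at the 84.8th percentile, in a peak 3861 bp wide. Cdh4, which encodes R-cadherin, first described in retina, stood far lower at 4.76 (5.12 and 4.45), at the 15.7th percentile. Both pools put Cdh2 above Cdh4, with no overlap of their values. Cdh1 (E-cadherin of epithelia), Cdh3 (P-cadherin) and Cdh15 (M-cadherin of muscle) had no promoter peak and no intragenic peak in any of these 3 lists. Cdh1 and Cdh3 lie 46.1 kb apart on chromosome 8, and neither had a distal peak within 100 kb (one outside 1000 bp of any TSS) either.

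Type II cadherins, whose members mark subsets of neurons and brain regions, were nearly all marked. A promoter peak was present for 11 of 12 members, and the exception was Cdh19, a cadherin of Schwann cells and other neural crest derivatives, which had no peak of any class in the replicated list. Cdh20 (chr1:104768529-104995481) was the highest in the replicated list, with 11.8, and in pool J, with 9.28, while its 14.3 in pool I was below Cdh11 and Cdh6. Its promoter peak spanned 5357 bp, at the 99.6th percentile of width, and its summit window is printed above. Cdh6 (chr15:13028701-13173675) reached 11.1 (14.7 and 8.16), and Cdh11, known from bone and mesenchyme as well as brain, 10.7 (15.4 and 7.38). Cdh11 also had a wide peak, of 4165 bp. Below these came 4 cadherin genes described in brain. Cdh10 had 9.95 (12.5 and 7.61) and Cdh18 had 9.51 (11.7 and 7.57), which are hardly apart in either pool. Cdh22 had 7.76 (8.39 and 7.05) and Cdh12 had 7.16 (10 and 4.50). The order of these last genes differed between the pools, since Cdh12 was above Cdh22 in pool I and below it in pool J. Cdh7 (8.60 and 4.82) and Cdh24 (6.96 and 6.12) were both at 6.56 in the replicated list, Cdh8 was at 5.66 (7.37 and 3.90) and Cdh9 at 3.43. The Cdh9 value was below both of its pool values, 7.15 and 5.55, which shows that the replicated signal is not a mean of the pools. The median over the 11 genes was at the 40.8th percentile, under the middle of all marked coding genes.

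The 5 cadherins outside both classical types had 1 marked promoter. Cdh13, which encodes T-cadherin, a lipid-anchored cadherin that binds adiponectin, had 5.56 in the replicated list, 8.19 in pool I and 3.53 in pool J. Cdh16 of kidney, Cdh17 of liver and intestine, Cdh23 of the tip links of hair cells, and Cdh26 had no promoter peak in any of the 3 lists. Of these 4 genes Cdh23 alone is longer than 100 kb, and it had 2 intragenic peaks, the stronger at 2.57.

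Contactins were marked in 5 of 6 cases. Cntn1 (chr15:92051165-92341967), whose protein joins axon and glia at the paranode, had the highest promoter signal of the family, 16.1 in the replicated list, 18.4 in pool I and 15.3 in pool J, at the 90.1st percentile. Cntn4 (chr6:105677660-106699310), a partner of the amyloid precursor protein, followed at 11 (13.3 and 8.53), and its peak also lay near the TSS of the non-coding gene Gm15631. In both pools Cntn1 was above Cntn4 and no contactin exceeded it. Cntn2, which encodes TAG-1, the contactin found beside the paranode, had 9.95 (12.7 and 8.71). Cntn6 had 8.26 (9.41 and 7.05). Cntn5 had 7.36 (9.41 and 5.94), with the same signal as Cntn6 in pool I. Cntn3 had no promoter peak in any list at either of its 2 start sites, 108 kb apart, yet its body held 9 peaks in the replicated list and 9 in each pool.

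Cntnap genes ranged from strong to undetected. Cntnap1 (chr11:101170523-101190724), which encodes Caspr, the partner of contactin-1 at the paranode, had 12.8 in the replicated list, 13.9 in pool I and 11.7 in pool J, in a peak that also lay near the TSS of Ccr10, so that the signal need not be its own. Cntnap2 (chr6:45059357-47304213), which encodes Caspr2, the molecule that gathers potassium channels next to the paranode, had 12.3 (14.2 and 12.8). It is 2.24 Mb long and its promoter peak lay near no other gene. These 2 genes were above the other Cntnap genes in each pool. Cntnap4 had 7.23 (9.13 and 6.49) and Cntnap5a 4.23 (5.11 and 3.90). Cntnap5b had 2.28 (2.38 in pool I and no peak in pool J), at the 0.346th percentile, with a −log10 q of 1.63. Cntnap3 and Cntnap5c had no promoter peak in any list.

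IgLON genes stood highest of the families. All 5 had a promoter peak in each list, and their median was at the 78.7th percentile. Negr1 (chr3:156561794-157316445), named for its role as a neuronal growth regulator, had 20.1 in the replicated list, 23.5 in pool I and 16.1 in pool J, at the 96.6th percentile and the highest of all 40 members in each list. Its promoter peak was 3989 bp wide and also lay near the start of the non-coding gene 4930570G19Rik. Ntm (chr9:28994750-29963141), which encodes neurotrimin, had 13.1 (16.3 and 9.46), and Opcml (chr9:27790775-28925410), first named as an opioid-binding molecule, 13.0 (16.6 and 10). Ntm was the higher of these in the replicated list and Opcml in both pools, so they are not told apart by signal. The Opcml values in the replicated list and pool J and the Ntm value in pool J come from the second start of the gene. Iglon5 (chr7:43472904-43490075), the target of autoantibodies in a sleep and movement disorder, had 11.4 (12.8 and 8.86), and Lsamp (chr16:39984361-42181679), named for the limbic system, 11.1 (12.9 and 9.46). Pool I put Lsamp slightly above Iglon5, as did pool J. Iglon5 is 17.2 kb long, while the other IgLON genes span between 755 kb and 2200 kb.

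Promoter peaks of the members had a median width of 1217 bp, against 887 bp over all coding genes, and most members had a promoter peak of their own. A promoter peak near no other gene's TSS was found for 23 of 40 members, against 41.5% of all coding genes. The highest promoter peak lay near another gene's TSS for 8 members. Summed over all starts of a gene, the promoter peaks of a marked member covered a median of 2127 bp, against 1466 bp over marked coding genes. In sum 10 members reached 3 kb, as did 11.8% of marked coding genes. Lsamp, Cntn1 and Cntn4 did so only by adding peaks, since their widest were 1187, 1919 and 2497 bp.

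Long adhesion genes were marked at some of their alternative starts and not at others. Start sites over 10 kb apart were found in 14 members, and these held 30 groups of start sites, of which 18 had a promoter peak. All groups were marked in Opcml, Ntm, Lsamp and Cdh2, some in 8 genes, and none in Cntn3 and Cdh23. The first group was marked in the other 12 genes. Start groups of other coding genes were not counted, so these numbers have no share over all genes beside them.

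The paired starts of 3 IgLON genes were close in strength. Opcml had 12.7 at its first start and 13.0 at its second, 613 kb downstream, with 16.6 and 16.2 in pool I and 9.07 and 10 in pool J, so the order of the 2 starts changed between pools. Ntm had 13.1 at its first start and 10.2 at its second, 551 kb downstream. Pool I gave them 16.3 and 12.9, but pool J 7.23 and 9.46, in the reverse order. Lsamp had 11.1 and 10.1 at starts 1550 kb apart, with 12.9 and 12 in pool I and 9.46 and 8 in pool J, where the first was higher each time. In Cntn1 the first start had 16.1 and the third, 110 kb downstream, 8.86, and the second had no peak. In Cntn4 the first had 11 and the third, 441 kb downstream, 7.08, again with none at the second. Pool I gave the third starts 11.3 in Cntn1 and 9.51 in Cntn4, and pool J gave 7.05 and 4.29, so in both contactins the first start was the stronger in each list. Cdh2 had only 2.27 at its second start, 139 kb downstream, in a peak of 252 bp that neither pool list held. The second start of Cntnap2, 2180 kb from the first and near the end of the gene, had no promoter peak, although an intragenic peak of 5.37 (6.96 in pool I and 3.67 in pool J) had its summit at -4889 bp relative to it. Cdh4, Cdh7, Cdh9, Cdh18 and Cntn5 likewise had no peak at their second start.

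The basic set of transcripts does not hold every start in a gene record. For Cdh12 the record begins 661 kb upstream of the first basic start, and a peak of 2757 bp lies there (chr15:20449057-20451813), with a signal of 6.86, 8.44 in pool I and 5.33 in pool J. That peak also lies near the TSS of the non-coding gene Gm49685. For Cdh18 the record begins 487 kb upstream, with a peak of 2.87 in the replicated list and 3.53 in pool I but none in pool J.

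**Figure D2:**
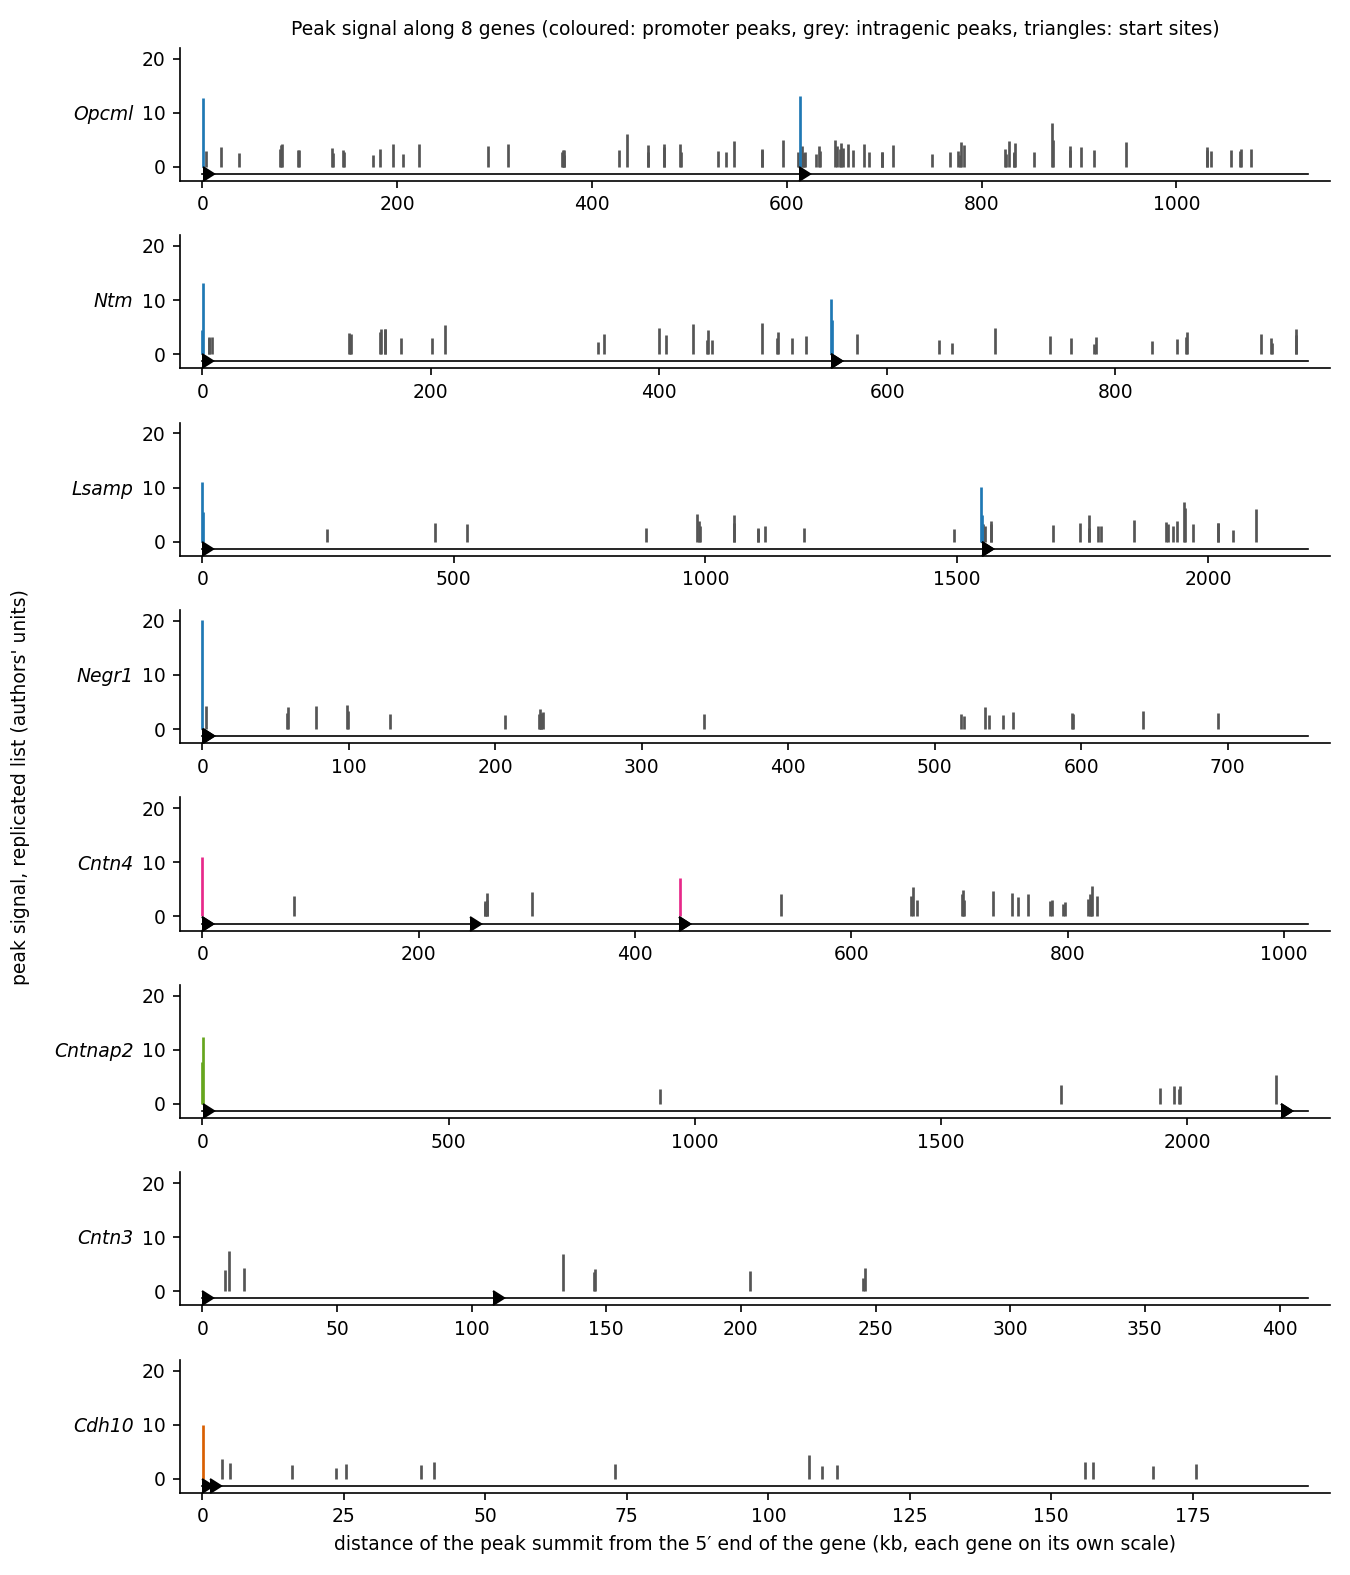
Peaks of the replicated list along 8 genes, with the distance of the summit from the 5′ end of the gene in kb on the x axis (a scale of its own for each gene) and peak signal in authors' units on the y axis. Coloured lines are promoter peaks, grey lines intragenic peaks and triangles start sites; Opcml, Ntm and Lsamp show a tall line at both starts, and Cntn3 has grey lines but none at a start.

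The bodies of the long genes held many more peaks than their starts. An intragenic peak, one in the gene body outside 1000 bp of any TSS, was found in 30 of 40 members (75%), against 29.7% of all coding genes. Of the members of at least 100 kb 27 of 29 (93.1%) had one, against 76.7% of coding genes of that length. These members were the longer set, with a median body of 410 kb against 169 kb, and at 500 kb or more the shares were close, 92.3% against 90.4%. The members held 354 such peaks in the replicated list, beside 47 promoter peaks. Pool I alone gave 368 and pool J alone 189. Per length the members held fewer peaks than other long genes. Members of at least 100 kb had a median of 1.27 peaks per 100 kb, against 1.91 over all coding genes of that length, and the median over all 40 members was 0.870. Summed over whole bodies, members of at least 100 kb had 1.82 per 100 kb against 3.53. Both pools gave the same order, with 1.89 against 3.46 in pool I and 0.959 against 2.11 in pool J. At 500 kb or more the gap between the sums was narrower, 1.75 against 2.51 per 100 kb, and the medians were 0.864 and 1.36. There too the members were the longer set, with a median body of 1020 kb against 730 kb, so lengths were not matched. A promoter peak and an intragenic peak were both present in 27 members, a promoter peak alone in Cdh24 and Cntnap5b, an intragenic peak alone in Cdh23, Cntn3 and Cntnap5c, and neither in 8. Of these 8, Cdh1, Cdh3, Cdh17, Cdh19, Cdh26 and Cntnap3 had no distal peak either.

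Summed over the bodies of a family, intragenic peaks were densest in IgLON genes and sparsest in Cntnap genes. Over whole bodies the IgLON genes had 3.73 peaks per 100 kb, with 3.82 in pool I and 2.01 in pool J. That was close to the 3.53 of all coding genes of at least 100 kb. It was above the 2.51 of coding genes of at least 500 kb (2.55 in pool I and 1.46 in pool J), the length of every IgLON gene but Iglon5. Type I cadherins had 1.85, type II cadherins 1.84, contactins 1.57 and other cadherins 0.699. The Cntnap genes had 0.360, with 0.340 in pool I and 0.160 in pool J, the lowest of the 6 families in each list. That sum is dominated by very long genes: Cntnap1, 20.2 kb long, had 4 intragenic peaks, or 19.8 per 100 kb, the highest density of all 40 members, with 1 peak in pool I and 3 in pool J. Of the 4 peaks, 3 lay close together and matched the same pool I signal, 7.57, and 1 of these had its summit past the end of the gene.

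Opcml held the most intragenic peaks of any member. It had 85 in the replicated list, 79 in pool I and 42 in pool J, which ranked 19th among all coding genes by count. At 7.49 per 100 kb its density was at the 83.2nd percentile of coding genes of at least 100 kb. Ntm had 43 (53 in pool I and 28 in pool J), Lsamp 36 (35 and 22) and Negr1 24 (25 and 9). Cntn4 had 26 (28 and 16) and Cdh10 15 (14 and 7). Every one of these 6 genes had fewer in pool J, whose list is shorter. By density the order changed: Cdh10 had 7.68 per 100 kb, at the 83.7th percentile, while Lsamp had 1.64, at the 46.3rd. Cntnap2 had 7 peaks in 2.24 Mb, or 0.312 per 100 kb, at the 25.3rd percentile. Cntnap5b, 713 kb long, had none in any of the 3 lists, and Cntn6, 371 kb long, had 1 in the replicated list.

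**Figure D3:**
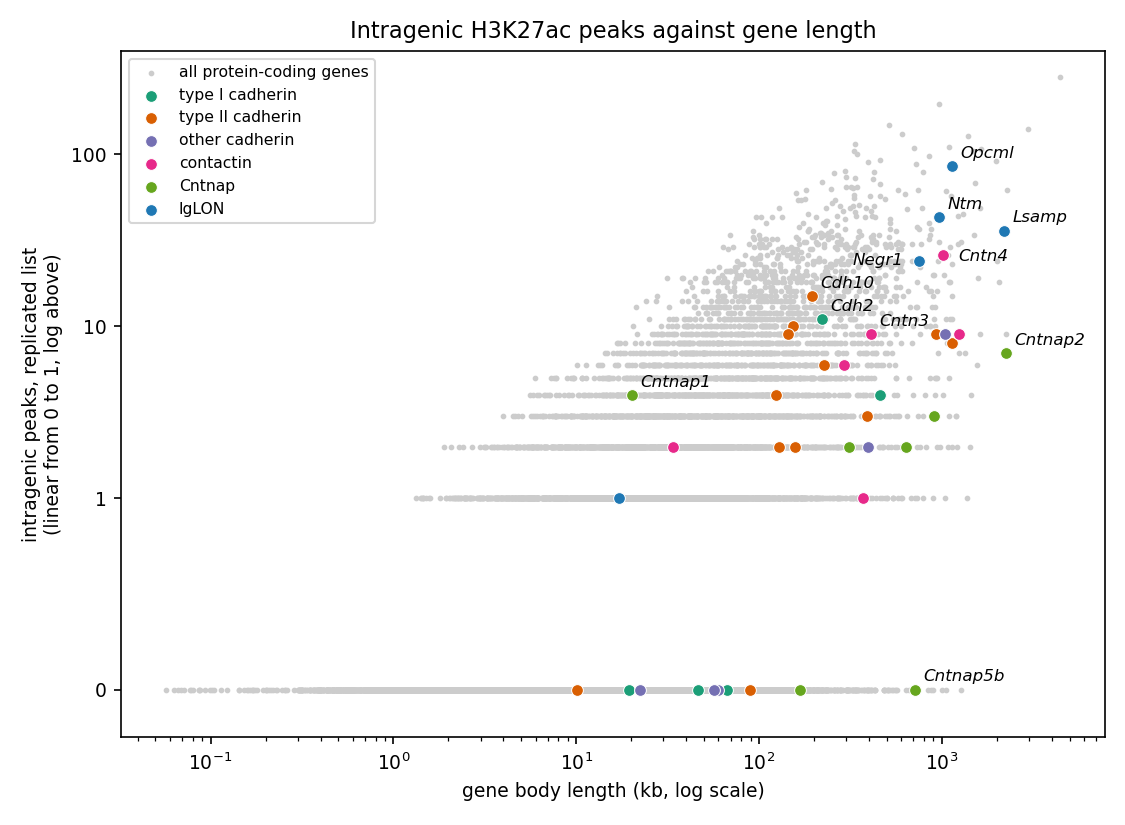
Number of intragenic peaks in the replicated list (y axis, linear from 0 to 1 and logarithmic above) against gene body length in kb (x axis, log scale). Grey points are all protein-coding genes and coloured points the 40 adhesion genes by family; Opcml with 85 peaks lies among the higher genes of its length, and Cntnap2 with 7 and Cntnap5b with 0 lie far below it.

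Along the bodies the peaks were spread in gene-specific ways. The first 20% of the body held 19% of the intragenic peaks of members of at least 100 kb, against 18.2% for coding genes of that length. Cdh10 had 40% of its peaks there, Negr1 29.2%, Ntm 25.6% and Opcml 20%. Lsamp had 2.78% and Cntn4 3.85%, which is 1 peak each. Peaks were joined into runs where the gap between them was at most 10 kb, and the run with most peaks is given for 4 genes. In Opcml it held 7 peaks over 18.8 kb in intron 2, 649 kb from the 5′ end and downstream of the second start. In Lsamp it held 4 peaks over 21.7 kb in intron 4, 1920 kb from the 5′ end. Shorter and tighter runs of 5 peaks lay in intron 1 of Negr1, over 3.53 kb, and in intron 9 of Cntn4, over 8.13 kb. Introns held 98% of all intragenic summits of members, and intron 1 of the transcript with most exons held 35.9%.

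The strongest single intragenic peaks lay in IgLON, contactin and cadherin genes alike. The strongest lay in intron 2 of Opcml (chr9:28661826-28662954), 872 kb from the 5′ end, with 8.07 in the replicated list, 10.4 in pool I and 6.24 in pool J. The next was in intron 1 of Cntn3 (chr6:102561563-102564223), 9.72 kb from the start, with 7.53, 9.82 and 5.51. Cntn3 also had a peak of 6.86 (9.62 and 4.8) in intron 2, so a contactin without a detectable promoter peak held 2 of the 4 strongest intragenic peaks of the members. Lsamp had 7.27 (6.62 and 6.37) in intron 4 (chr16:41934453-41937221). Cdh11 had 6.75 (7.81 and 5.38) in intron 1 and Cdh2 6.46 (7.74 and 5.22) in intron 15, near the 3′ end. Each of these peaks was present in both pool lists. That was so for 41.2% of the members' intragenic peaks, against 45.1% of those of all coding genes, and the median signals were 3.23 and 3.27. Of the members' intragenic peaks 36.4% had a −log10 q of 5 or more, against 40% over all coding genes. By family the share in both pools ran from 18.2% in the other cadherins to 56.6% in the contactins, of 11 and 53 peaks.

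Fewer of the members than of all coding genes had distal peaks, though not among genes of at least 500 kb. A distal peak lay outside the body, outside 1000 bp of any TSS and within 100 kb of a TSS of the gene. Promoter peaks of neighbouring genes were therefore not counted, and the distance names a neighbour and not a target. Such a peak was found for 15 of 40 members (37.5%), against 67.5% of all coding genes. Among members of at least 100 kb the share was 34.5%, against 52.8% of coding genes of that length, and among shorter members 45.5%, against 69.4%. The members of at least 100 kb were longer than those coding genes, with a median body of 410 kb against 169 kb. At 500 kb or more the shares were close, 30.8% of 13 members against 29.1% of coding genes. Most of the 76 distal peaks, 53 of them, lay at the members under 100 kb. Cdh15, the muscle cadherin, had 18 distal peaks in the replicated list (19 in pool I and 18 in pool J) and no promoter peak. Cdh24 had 16 (14 and 14), among them the strongest distal peak of a member, 15.0 (18.1 and 12.2) at chr14:54602820-54604142, 38.1 kb away. Cntn2 had 9, Cntnap1 and Cdh22 7 each. Counting a peak only for the gene with the nearest coding TSS left 10 of 40 members with a distal peak, a share near the 25.3% of all coding genes.

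Several members are neighbours on their chromosomes, and the peaks between some of these neighbours are given here. Stretches between other genes were not counted, so these numbers cannot be called few or many. Chromosome 8 holds 8 members, of which 4 were marked at a promoter, and chromosomes 1 and 15 hold 6 each, of which 5 and 6 were marked. Opcml and Ntm face each other tail to tail on chromosome 9, 69.3 kb apart with no coding gene between them and 2 peaks. Cdh7 and Cdh19, 748 kb apart with no coding gene between, had 0 peaks between them, and 1 of the 2 had a promoter peak. Cdh6 and Cdh9 on chromosome 15 were 3.56 Mb apart with 8 peaks and no coding gene between, and both were marked. Cntn6 and Cntn4 on chromosome 6 lie 814 kb apart with 5 peaks between them.

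Start regions of the marked members held fewer CpG pairs than those of marked genes in general. The ratio of observed to expected CpG within 500 bp of the most 5′ start had a median of 0.494 in the 29 members with a promoter peak and 0.261 in the 11 without. Over all coding genes these medians were 0.735 with and 0.206 without a peak. Of members with a ratio under 0.6, 19 of 29 (65.5%) were marked, against 29.2% of such coding genes. Of those at 0.6 or above, 10 of 11 (90.9%) were marked, against 90.3%. Cdh12 (0.119), Cntn6 (0.228) and Opcml (0.341) had the lowest ratios among the marked members. Cdh1 (0.717) was the unmarked member above 0.6, and Cdh4 (0.901) had the highest ratio with a signal of only 4.76. Cntn1, Ntm and Cntnap2, all above a signal of 12, had ratios of 0.471, 0.464 and 0.459.

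**Figure D4:**
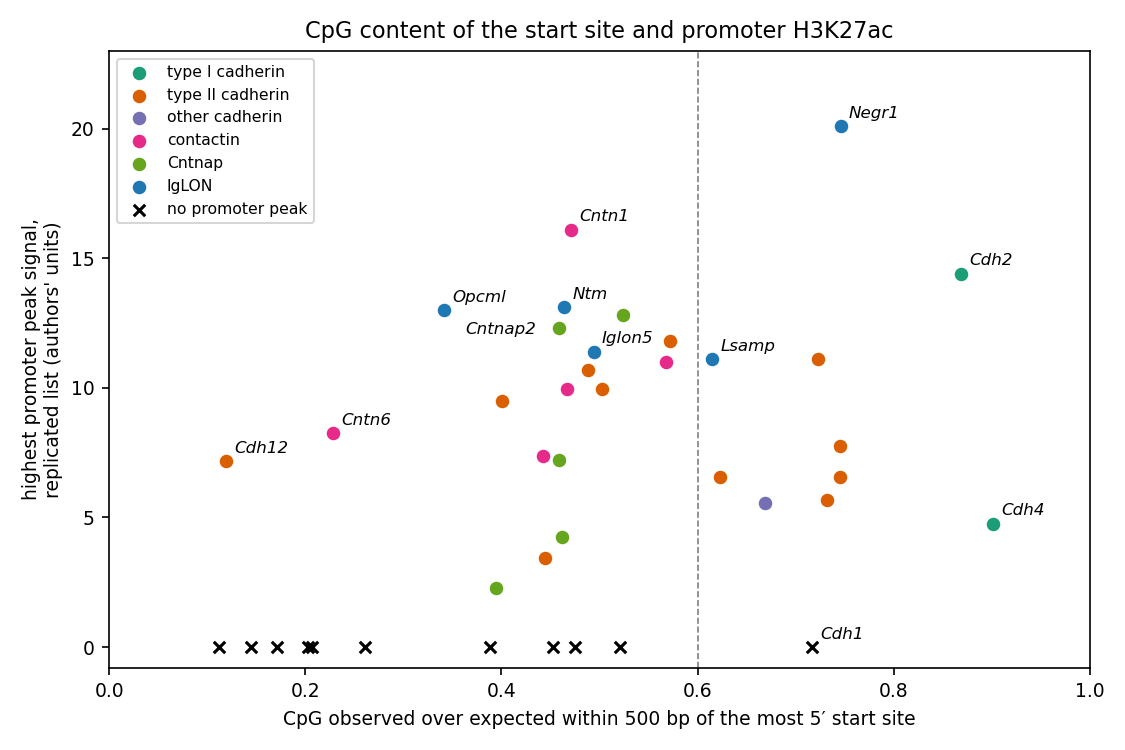
Observed over expected CpG within 500 bp of the most 5′ start (x axis) and highest promoter peak signal in the replicated list (y axis, authors' units) for the 40 genes, coloured by family, with crosses at 0 for genes without a promoter peak and a dashed line at 0.6. Left of the line lie 19 marked and 10 unmarked genes, and right of it 10 marked genes and Cdh1.

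All 28 members with a promoter peak in both pools had the higher signal in pool I. The ratio of pool I to pool J ran from 1.11 in Cntnap2 to 2.32 in Cdh13, with a median of 1.46. Over all 11906 coding genes with a peak in both pools the median ratio was 1.40 and 92.5% were higher in pool I, so the direction was not particular to the adhesion genes. Cdh13 (2.32), Cdh12 (2.23) and Cdh11 (2.08) had the highest ratios, and Cntnap2 (1.11), Cdh24 (1.14) and Cdh4 (1.15) the lowest. With 1 list per pool the ratios have no error, and the part of depth or scaling in them was not tested. The order of the 28 genes was similar in the pools, with a Spearman rho of 0.885, a description across genes that share their libraries.

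**Figure D5:**
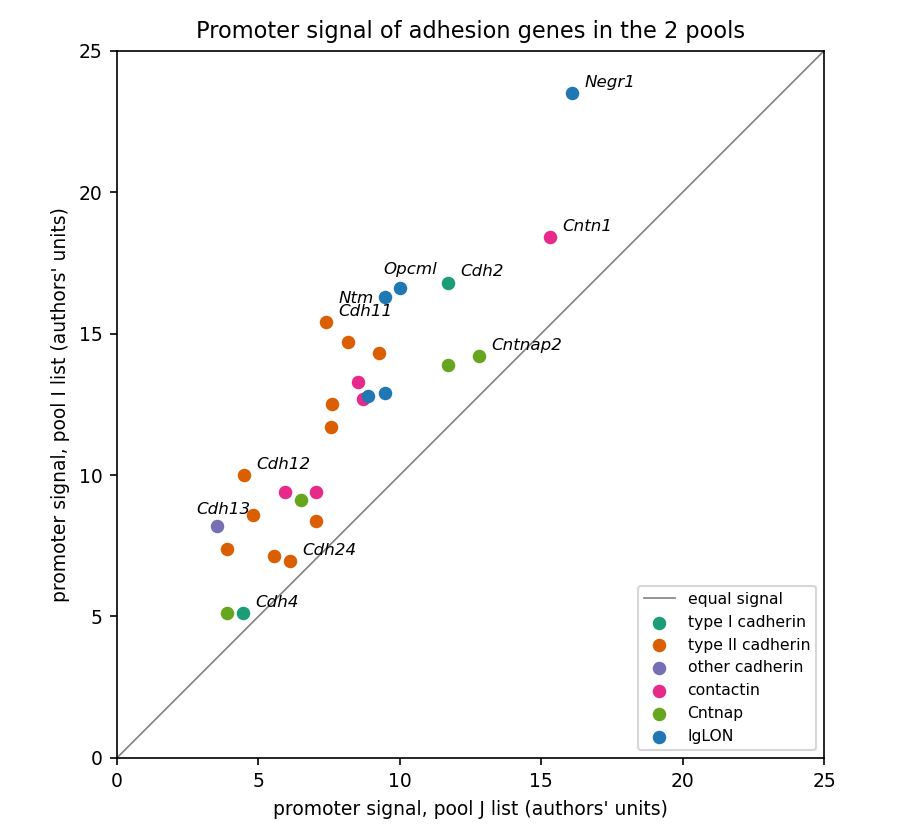
Highest promoter peak signal in the pool J list (x axis) and the pool I list (y axis), both in authors' units, for the 28 genes with a promoter peak in both, coloured by family. Every point lies above the line of equal signal, from Cntnap2 at a ratio of 1.11 to Cdh13 at 2.32.

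The motifs marked in the printed sequences were found around the members' intragenic summits at shares near those of other genes. CAGATG was found within 201 bp around 16.7% of the 354 intragenic summits of members, against 17.3% of 35577 intragenic summits of coding genes. CAGCTG was found in 13.6% against 14%, and the AP-1 motif TGANTCA in 6.78% against 5.71%. The octamer ATGCAAAT, bound by POU factors, was present in 9 member windows (2.54%), against 1.1%, a small count. The cyclic AMP response element TGACGTCA was in 1 member window (0.282%, against 0.141%) and GCGTGGGCG, bound by EGR factors, in 0 (against 0.0478%). Of 47 promoter summits of members 5 held CAGATG (10.6%, against 9.12% of 17574), 4 held CAGCTG (8.51%, against 11.8%) and 1 held TGANTCA (2.13%, against 2.81%). None held TGACGTCA, GCGTGGGCG or ATGCAAAT, which were in 0.171%, 0.472% and 0.444% of all such windows. No motif of the 6 contains another, and a match shows only that the letters are there.

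Genes whose products bind these adhesion molecules had promoter peaks in both lists looked at. All 7 catenin genes, which link cadherins to actin, had one, beside 58.5% of all coding genes and 79.4% of those of at least 100 kb. Ctnnd2, the neuronal delta-catenin, had 12.4 (15.1 in pool I and 10 in pool J) and 34 intragenic peaks, and Ctnna2, the neuronal alpha-catenin, 11.9 (13.7 and 9.96). Ctnna3, known from heart, was the lowest catenin in the replicated list at 3.89 (4.46 and 2.98), with 19 intragenic peaks, and in pool J Jup was lower at 2.89. All 16 genes on the second list, made of partners and Cdh5, were marked as well. Among them Kcna1 and Kcna2, the potassium channel subunits gathered by Caspr2, had 17.7 and 18.0, App and Aplp1 18.3 and 18.8, and Nfasc, whose glial form binds contactin-1 and Caspr at the paranode, 13.9. These 5 were above Cntnap2 (12.3) in the replicated list, as were Nrcam, Chl1, Ncam1, Ptprg, Tnr and Aplp2. Other partners were lower than Cntnap2: Epb41l3 had 10.8, Ncam2 8.36, L1cam 5.46 and Ptprz1 3.87. In pool J Kcna1 (12.8) equalled Cntnap2 (12.8), while Kcna2 (12.7) and Nfasc (12.1) were below it. Cdh5, the endothelial cadherin left out of the members by rule, had 3.32 (4.52 and 3.90), below every marked member except Cntnap5b in the replicated list.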

How the data were processed

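H3K27ac ChIP-seq of left cerebral cortex was deposited as peak lists on mm10: a replicated list and a pseudoreplicated list of both pools, and 1 pseudoreplicated list per pool, per the labels' file descriptions. The 2 technical libraries of a pool share 1 alignment. For each peak the authors deposited a signal value, a −log10 q and a summit position; aligner, caller, signal normalization and depth are not stated in the sources used here, so no counting interval was made. Signal was used only to describe and rank peaks within a list.

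Peaks were assigned with Python 3.11.15 (pandas 2.3.3, numpy 2.4.6) to GENCODE vM21 basic genes: promoter (within 1000 bp of a TSS, counted for every such gene), intragenic (at least 1 bp in the body, outside 1000 bp of any TSS) and distal (outside the body and outside 1000 bp of any TSS, within 100 kb of a TSS of the gene). Peaks in 2 lists were matched by an overlap of at least 1 bp. A gene took its highest promoter peak. Assignment was tested on simulated data. Sequences were read from GRCm38.p6 with pysam 0.24.0 after samtools 1.23.1 indexing; 27 of 40 members matched the RefSeq promoter table, and 164 of 164 compared promoters were identical to the genome.

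The members, families and gene lists were chosen with earlier results of these data known. Every member is named; in full, the 2 highest promoter signals of each family and the 6 genes with most intragenic peaks. Sequences follow a rule of the strongest summit windows outside exons of up to 2 members a family. The 7 printed were selected, and those of Opcml and Cntn3 added to the rule, after their values were seen. Alternatives were each pool list, the other list of both pools, −log10 q of at least 5, windows of 500 and 2500 bp, the 5′ end of the gene record alone, distal limits of 50 kb or the nearest TSS, peaks near no other TSS, summits in the body, peaks near other TSSs kept, and, chosen after seeing the data, the full GENCODE set.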

Additional observations from a re-analysis of the deposited data

How the results depend on the processing

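Numbers of members with a promoter or an intragenic peak stayed within 1.5 times the reported count under every alternative run, and no alternative added a promoter peak to the 11 members without one in the 500 bp, 2500 bp or full GENCODE settings. With 1 pool left out, members with a promoter peak ranged from 28 to 29, with an intragenic peak from 26 to 30 and with a distal peak from 11 to 17, the median promoter percentile from 47.5 (pool J alone) to 62.6 and the median intragenic density from 0.411 (pool J alone) to 0.961 per 100 kb. Pool J alone thus put the median promoter of the members below the middle of all marked coding genes (49.8), where the replicated list put it above. The 5′ end of the gene record alone also did so, with a median percentile of 46. With peaks limited to a −log10 q of 5 or more, the median density over all 40 members fell to 0.241 per 100 kb and members with a distal peak to 9. Coding genes of at least 100 kb had a median density of 0.624 at that threshold, but 11 of the members are shorter, so the 2 medians cover unlike sets. Cntnap5b lost its promoter peak at that threshold and in pool J. The cause of these shifts was not tested. Depth is unknown, so absence from a list does not show absence of the mark. No paired analysis was possible because the series has 1 group.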
